A study of Mus musculus with 9 samples.

Results

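The genes described here were the 37 mouse semaphorin, plexin, neuropilin, Slit and Robo genes, which encode secreted and membrane-bound guidance cues and their receptors. They were chosen by gene symbol and not by any measured value. A region of open chromatin was counted for one of these genes when the deposited list assigned it to that symbol. By this rule 29 of the 37 genes had at least 1 region, and together they held 68 of the 17164 distinct open regions of the list. The other 8 genes had no assigned region.

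Semaphorins signal through plexins, which are large receptors that span the cell membrane. The secreted class 3 semaphorins mostly need a neuropilin as a co-receptor, whereas membrane-bound semaphorins bind plexins directly. Slits are secreted repellents that signal through Robo receptors. In the embryo these cues steer axons, neural crest cells and blood vessels, and several of them are known for roles in outflow tract septation, in the formation of heart chambers and in the development of the large veins.

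Chromatin accessibility was profiled by ATAC-seq, an assay that marks open DNA by transposon insertion with Tn5, in pharyngeal mesoderm and hearts dissected from mouse embryos at embryonic day 8.75, when they had 6 somites. The series comprised 9 libraries in 3 groups of 3, which were control (genotype wt), Isl1-/- embryos lacking the LIM-homeodomain factor Isl1, and Isl1Cre+/-/ Brg1fl/fl embryos, in which a Cre driven by Isl1 recombines floxed Brg1 and so acts only in cells that expressed Isl1 and in their descendants. Brg1 is the ATPase of the SWI/SNF remodelling complex. The values used here came from 1 list of regions shared by the 3 control libraries, and values of the mutant groups were not analysed here, so no comparison between genotypes was made. The list gives the position of each region, its distance from an assigned transcription start and the assigned gene, with no height, score or read count. The read depth behind a region is therefore unknown, the spread between libraries could not be computed, and a gene is called without a region when no listed region was assigned to its symbol, which does not show that its chromatin was closed and does not exclude a listed region inside it that was assigned elsewhere. The dissected tissue is a mixture of cell types, and a region open in all cells and one open in a fraction of them cannot be told apart.

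The central 200 bases of 7 distal regions are shown, for 5 genes with at least 3 regions and for the long-range regions of Slit2 and Robo2. Each sequence is the plus strand of mm9 at the centre of the widest region of its gene that lay over 1 kb from every annotated start and touched no exon. Capitals mark matches, on either strand, to 1 of the 10 short motifs described below with the motif counts.
Sema3a: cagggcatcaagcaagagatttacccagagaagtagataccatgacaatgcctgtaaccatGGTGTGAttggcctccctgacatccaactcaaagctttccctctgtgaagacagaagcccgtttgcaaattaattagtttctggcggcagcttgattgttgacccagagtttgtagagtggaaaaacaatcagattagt
Sema3d: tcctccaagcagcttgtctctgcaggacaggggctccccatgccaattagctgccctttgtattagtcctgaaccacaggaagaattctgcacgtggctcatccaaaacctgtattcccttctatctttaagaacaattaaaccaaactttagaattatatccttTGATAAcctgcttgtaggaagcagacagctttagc
Sema3e: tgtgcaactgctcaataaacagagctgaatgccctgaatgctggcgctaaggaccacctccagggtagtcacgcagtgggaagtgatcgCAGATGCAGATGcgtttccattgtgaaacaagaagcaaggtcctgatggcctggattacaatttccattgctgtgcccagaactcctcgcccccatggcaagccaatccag
Plxna2: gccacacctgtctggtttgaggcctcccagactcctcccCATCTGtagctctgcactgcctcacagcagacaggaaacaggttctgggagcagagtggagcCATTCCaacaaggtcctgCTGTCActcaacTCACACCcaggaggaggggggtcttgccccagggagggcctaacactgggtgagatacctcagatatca
Slit2: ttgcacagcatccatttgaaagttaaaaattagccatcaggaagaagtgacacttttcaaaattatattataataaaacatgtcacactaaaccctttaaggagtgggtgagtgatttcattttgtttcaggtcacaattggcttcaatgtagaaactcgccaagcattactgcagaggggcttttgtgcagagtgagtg
Robo1: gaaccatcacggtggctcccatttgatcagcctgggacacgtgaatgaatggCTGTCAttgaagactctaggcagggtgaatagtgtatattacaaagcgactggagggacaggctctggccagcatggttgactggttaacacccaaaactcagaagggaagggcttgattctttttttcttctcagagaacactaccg
Robo2: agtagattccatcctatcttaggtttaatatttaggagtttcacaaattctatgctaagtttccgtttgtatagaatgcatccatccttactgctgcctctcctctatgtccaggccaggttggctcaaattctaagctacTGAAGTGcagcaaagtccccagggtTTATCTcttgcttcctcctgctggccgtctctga

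The Sema3a window, at chr5:13529284-13529483, lay in an intron of Sema3a and held the T-box spelling GGTGTGA. The Sema3d window, at chr5:12868477-12868676, was intergenic and held the GATA spelling TGATAA. In the Sema3e window, at chr5:13982596-13982795 upstream of the gene, 2 adjoining copies of the E-box CATCTG were read from the minus strand. The Plxna2 window, at chr1:196436851-196437050 upstream of the gene, held 4 matches, which were 1 each of the E-box, TEAD, Meis and T-box spellings. The Slit2 window, at chr5:47948346-47948545, was intergenic and held none of the 10 motifs. The Robo1 window, at chr16:72694003-72694202 in an intron, held 1 copy of TGACAG, and the intergenic Robo2 window, at chr16:74801563-74801762, held the Nkx2-5 spelling and one of the GATA spellings.

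Open regions were found for most of these guidance genes. Of the 37 genes, 29 had an assigned region (78.4%, 95% Wilson interval 62.8 to 88.6), against 49.3% of the 21031 coding genes in the reference table. A region whose centre lay within 1 kb of the assigned start was present for 23 genes (62.2%, 46.1 to 75.9), against 40.6% of coding genes. At least 3 regions were assigned to 8 genes, whereas 4.96% of coding genes had as many. These intervals cover counting error over genes only, not variation between embryos.

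The regions were unevenly spread over the genes. Robo1 had 10 regions, Sema3a had 7, Sema3e and Sema6d had 5 each, Sema3d, Sema5a and Slit2 had 4 each, and Plxna2 had 3. These 8 genes held 42 of the 68 regions (61.8%). Only 10 of the 11541 genes in the list had more regions than Robo1, and 54 had more than Sema3a. Sema4b, Plxna1, Nrp2, Slit3 and Robo2 had 2 regions each, and 16 genes had 1 each. The genes with no region were Sema3g, Sema4a, Sema4d, Sema4g, Sema7a, Plxna4, Plxnb3 and Plxnd1. Split by family, 15 of 20 semaphorins, 6 of 9 plexins, both neuropilins, all 3 Slits and all 3 Robos had a region. The 20 semaphorin genes together held 36 regions, the 9 plexins 9, the neuropilins 3, the Slits 7 and the Robos 13.

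**Figure D1:**
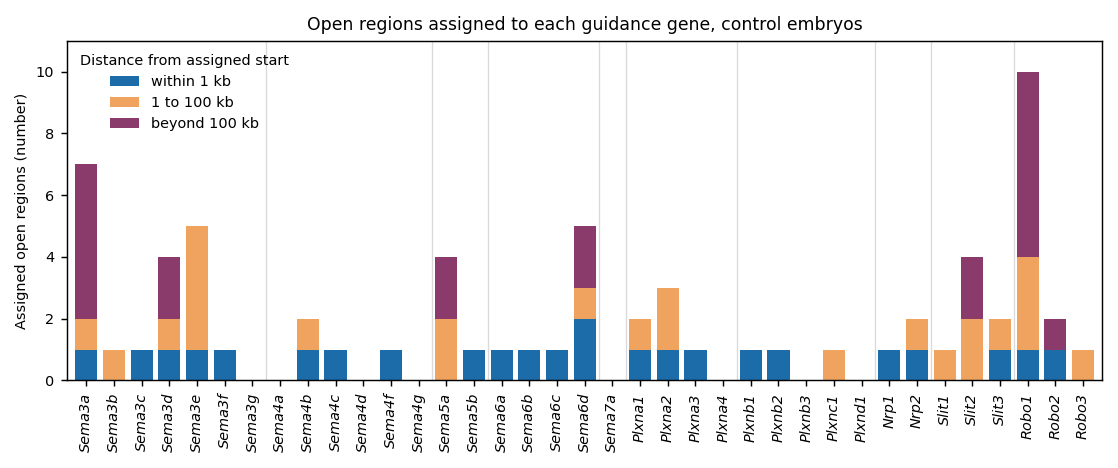
Number of open regions assigned to each of the 37 genes in control embryos, with genes on the horizontal axis ordered by class and bars coloured by distance from the assigned start. The tallest bars are those of Robo1 (10 regions) and Sema3a (7), and most of their regions lie over 1 kb from the start.

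Among the secreted class 3 semaphorins, 6 of 7 genes had a region and 5 had one within 1 kb of the start. Sema3a, a repellent that acts through Nrp1 and A-type plexins, spans 477 kb of chromosome 5, and all 7 of its regions lay inside the gene. Measured from the assigned start, 2 of them lay 271 kb and 199 kb upstream and 5 lay 0.286, 6.31, 128, 130 and 148 kb downstream. The region 271 kb upstream covered another annotated start of Sema3a, at chr5:13125109-13126241, so that 2 of the 7 regions lay over starts of this gene. The pair at 128 and 130 kb was separated by 948 bp, the shortest gap between neighbouring regions of any of these genes.

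Sema3d and Sema3e flank Sema3a on the same chromosome. Sema3d, known for a role in pulmonary vein patterning, had a region of 2129 bp at its start, one 80.8 kb upstream, and a pair far downstream, at 369 and 485 kb, both beyond the end of the gene. The nearest coding start to this last pair belonged to the predicted gene Gm10481. Sema3e, which can bind Plxnd1 without a neuropilin, had regions 42.6 and 32.1 kb upstream, at 0.329 kb, and 7.04 and 14.1 kb downstream, so all 5 lay in a short interval around its start. Across the 1.95 Mb from the first Sema3d region to the end of Sema3e there were 18 regions, of which 16 were assigned to these 3 genes and 2 to Speer3. This came to 9.21 regions per Mb, against 6.47 per Mb over the genome.

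The remaining class 3 genes had few regions. Sema3c, whose product guides neural crest cells into the outflow tract, had 1 region, of 1434 bp, centred 0.033 kb upstream of its start. One further region lay in an intron of Sema3c, 133 kb from the 5′ end of the gene, but was assigned to Cd36. Sema3f, a ligand of Nrp2, had 1 region of 1431 bp at its start. The single region of Sema3b lay 3.53 kb upstream of its start and outside the gene. Sema3g had no region, and the nearest one, assigned to Phf7, was 32.8 kb from its nearest start.

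**Figure D2:**
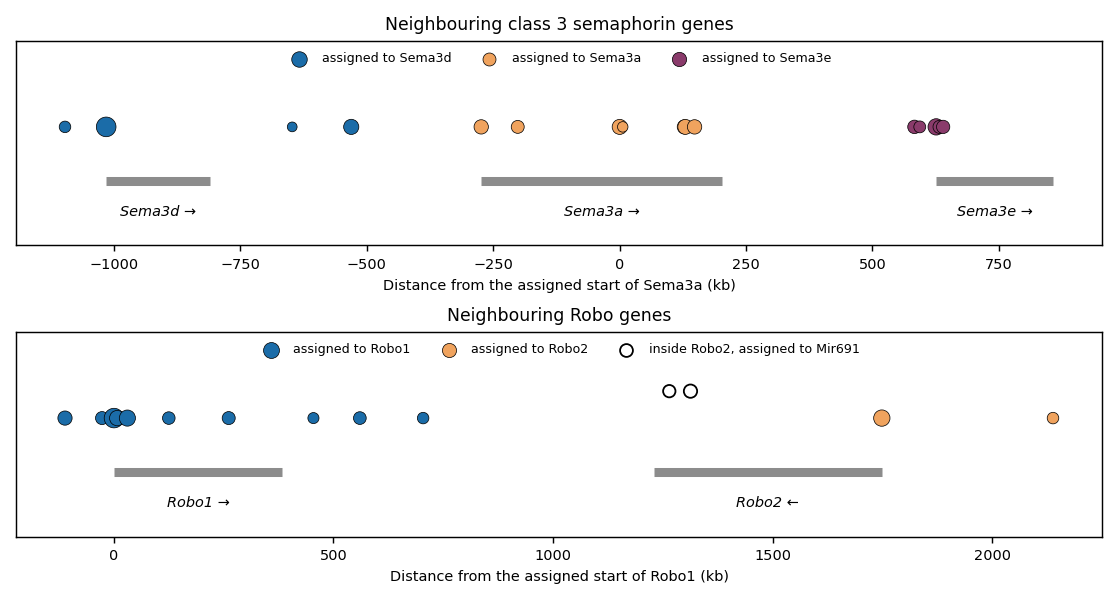
Open regions (points, with area proportional to width) and gene bodies (grey bars, with arrows giving the direction of transcription) around Sema3d, Sema3a and Sema3e and around Robo1 and Robo2, plotted as distance in kb from the assigned starts of Sema3a and Robo1. Regions between the genes that were assigned to Speer3 or Mir691 are not drawn, and the open circles are the 2 regions inside Robo2 that were assigned to Mir691. The 5 Sema3e regions cluster near its start, whereas the 10 Robo1 regions spread on both sides of the gene.

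The membrane-bound semaphorins differed by class. All 4 class 6 genes had a region within 1 kb of the start. Sema6d, which acts through Plxna1 in heart chamber morphogenesis, had 5 regions over a 578 kb gene. Of the Sema6d regions, 2, of 1652 and 1796 bp, lay over different annotated starts (0.444 and 0.220 kb from the assigned starts). Its other regions lay 18.5 kb upstream of the first start, 104 kb upstream of the second, inside the gene, and 119 kb downstream, beyond the gene. Sema6a, a ligand of Plxna2 and Plxna4, had 1 region of 2344 bp centred 0.938 kb upstream of its start, and the single regions of Sema6b and Sema6c were 921 and 1043 bp wide. Of the class 4 genes, 3 of 6 had a region, and each of the 3 had one within 1 kb of the start. Sema4c had a 3542 bp region at its start, which also covered the start of the transcript D430040D24Rik. Sema4f had 1 region of 904 bp, and Sema4b had 2, of which the one 11.6 kb downstream lay over another annotated start of the gene.

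The class 5 semaphorins carry thrombospondin repeats beside the semaphorin domain. Sema5a had 4 regions, at 1.25, 84.2, 169 and 324 kb downstream of the assigned start and all within the 452 kb gene. The region over its first annotated start, 1086 bp wide at chr15:32173941-32175026, was assigned to the noncoding RNA Snhg18, centred 66 bp from the start of that transcript. Sema5b had 1 region of 1458 bp, centred 9 bp from its start. Sema7a, the lipid-anchored class 7 semaphorin and a ligand of Plxnc1, had no region, and the nearest region was 28.9 kb from its start.

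Of the 9 plexins, 6 had a region, and 5 had one within 1 kb of the start. Plxna2, a co-receptor with neuropilins in neural crest cells, had 3 regions, which were a 2414 bp region centred 13 bp from its start, one 9.07 kb upstream and one 43.3 kb downstream in an intron. Plxna1 had a 1520 bp region at its start and one 17.5 kb downstream in an intron. Plxna3, on the X chromosome, had 1 region of 712 bp at its start, at percentile 1.16 of width among regions within 1 kb of a start. Plxnb1, a receptor of Sema4d, and Plxnb2 had start regions of 2401 and 1072 bp. The only region of Plxnc1 lay 72.4 kb downstream in an intron and, at 388 bp, was among the narrowest of the list, ranking 17159 of 17164 by width.

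Plxna4, Plxnb3 and Plxnd1 had no assigned region. Plxnd1 is the endothelial plexin that receives Sema3e and is needed for outflow tract septation, and the region nearest to any of its 3 annotated starts, assigned to Tmcc1, was 112 kb away. The 444 kb Plxna4 gene contained 1 region, in an intron 109 kb from its 5′ end, which was assigned to the antisense transcript Plxna4os1. For Plxnb3 the nearest region was 20.6 kb away, assigned to Idh3g. The ligands without a region had their nearest one 3.49 kb (Sema4a), 57.2 kb (Sema4g) and 61.9 kb (Sema4d) from a start. The region near Sema4a lay in an exon of the gene and was assigned to Mir7011.

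Both neuropilins, the co-receptors of the class 3 semaphorins and of vascular endothelial growth factor, had a region at the start. That of Nrp1 was 3639 bp wide, at chr8:130880370-130884008, and ranked 16 among the 9083 regions within 1 kb of a start. It also covered the annotated start of Mir1903. A second region inside Nrp1, in an intron 129 kb from the 5′ end, was assigned to Mir1903. Nrp2 had a 1354 bp region centred 25 bp upstream of its start and a 716 bp region 40.2 kb downstream in an intron, at chr1:62789714-62790429, which held none of the 10 motifs in its central 300 bp.

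All 3 Slits had a region, but only Slit3 had one centred within 1 kb of the assigned start. The widest region of any of these genes lay over the start of Slit2. It spanned 4273 bp, at chr5:48373761-48378033, and ranked 11 among all 17164 regions. Its centre lay 1503 bp downstream of the assigned start and 87 bp from another annotated start of the gene. Slit2 also had regions 709 and 426 kb upstream, the first of them the longest distance of any region assigned to these genes, and one 67.8 kb downstream in an intron. Slit3, known for roles in the caval veins and the pericardium, had a 1274 bp region at its start and one of 789 bp 30.3 kb downstream. Slit1 had a single region, 27.5 kb downstream in an intron.

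The Robo receptors held the most regions per gene, with a mean of 4.33 over 3 genes, and 10 of their 13 belonged to Robo1. Robo1, which binds all Slits, had 10 regions on chromosome 16. A 2110 bp region lay at its start, 2 lay 111 and 27.0 kb upstream, 4 lay in introns at 7.66, 30.7, 125 and 261 kb, and 3 lay beyond the gene at 454, 560 and 704 kb. For the last of these the nearest coding start was that of Robo2, 532637 bp away, rather than that of Robo1. Robo2 spans 520 kb and had 2 assigned regions, of 1470 bp at its start and of 737 bp 391 kb upstream. Its introns held 2 more regions, which were assigned to Mir691. In the 2.25 Mb from the first Robo1 region to the last Robo2 region there were 16 regions, 12 of them assigned to these 2 genes and 4 to Mir691, or 7.11 per Mb. Robo3, a divergent Robo that controls midline crossing of axons, had 1 region of 1089 bp over an exon, 12.2 kb from its assigned start and 1659 bp from the nearest annotated start of the gene.

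Compared with the whole list, the regions of these genes lay farther from their assigned starts. Within 1 kb of the assigned start were 24 of 68 regions (35.3%, 25.0 to 47.2), against 52.9% of all regions. Beyond 100 kb were 20 (29.4%, 19.9 to 41.1), against 14.9%. Both shares of the whole list lay outside these intervals, which count regions as if they were independent, although regions of 1 gene are not. Without Robo1 the shares were 39.7% and 24.1%, for which no interval was computed. The ephrin, Eph and netrin genes described below also had a low share of regions within 1 kb. Some regions far from the assigned start lay near another annotated start, as did the Sema3a region 271 kb upstream. Within 1 kb of any annotated start were 28 of the 68 (41.2%, 30.3 to 53.0), against 56.0% of all regions. Measured to the nearest annotated start of the same gene, 23.5% lay beyond 100 kb, and the whole list was not measured in this way. Of the 44 regions over 1 kb from the assigned start, 30 lay downstream (68.2%, 53.4 to 80.0), against 54.5% of all 8081 regions at such distances, a share inside the interval. Inside the assigned gene lay 27 (61.4%, 46.6 to 74.3), against 25.9%, and 17 were intergenic (38.6%, 25.7 to 53.4), against 55.0%. Introns held 22 of the 68 regions (32.4%, 22.4 to 44.2), against 15.6% of all regions. These genes were long, with a median span of 92.5 kb against 15.4 kb for all coding genes. The part of gene length in the shares inside genes, in introns and beyond 100 kb was not tested. For 64 of the 68 regions the assigned gene was also the coding gene with the nearest annotated start. The exceptions were the far downstream pair of Sema3d, the last region of Robo1 and the downstream region of Sema6d, which lay nearest to the predicted gene Gm17555.

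**Figure D3:**
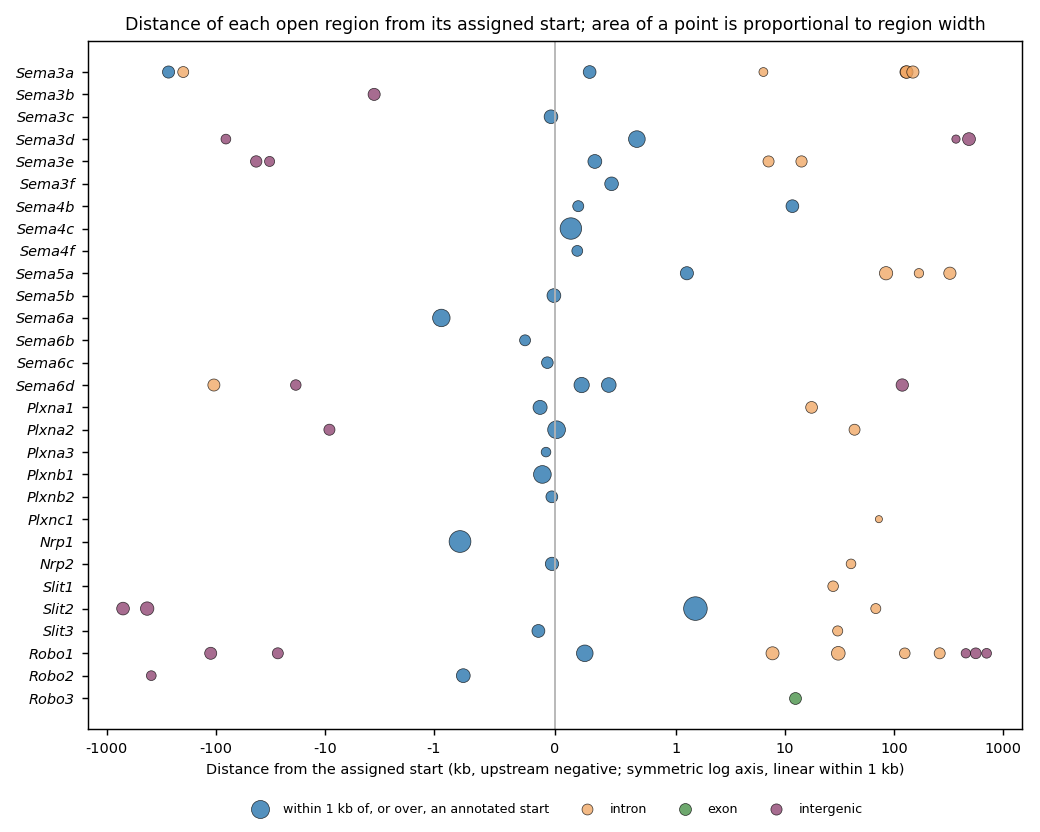
Signed distance of each of the 68 regions from its assigned start, in kb on a symmetric log axis that is linear within 1 kb, for the 29 genes with a region. Colours give the annotated place of the region centre and the area of a point its width. Points of Robo1 and Slit2 reach 704 kb downstream and 709 kb upstream, whereas Sema3c, Sema3f and most other genes with 1 region have it at the start.

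The median width of the regions of these genes was close to that of the list. It was 1116 bp (quartiles 902 and 1396 bp), against 1123 bp for all regions. Within 1 kb of starts it was 1464 bp over 24 regions, against 1294 bp, and over 1 kb from starts it was 962 bp over 44 regions, against 950 bp. At least 2000 bp wide were 8 of the 68 (11.8%, 6.08 to 21.5), against 6.57% of all regions, a share inside the interval. These 8 were the start regions of Slit2, Nrp1, Sema4c, Plxna2, Plxnb1, Sema6a, Sema3d and Robo1. The regions beyond 100 kb were 527 to 1385 bp wide, with a median of 1099 bp against 919 bp for all regions at that distance.

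**Figure D4:**
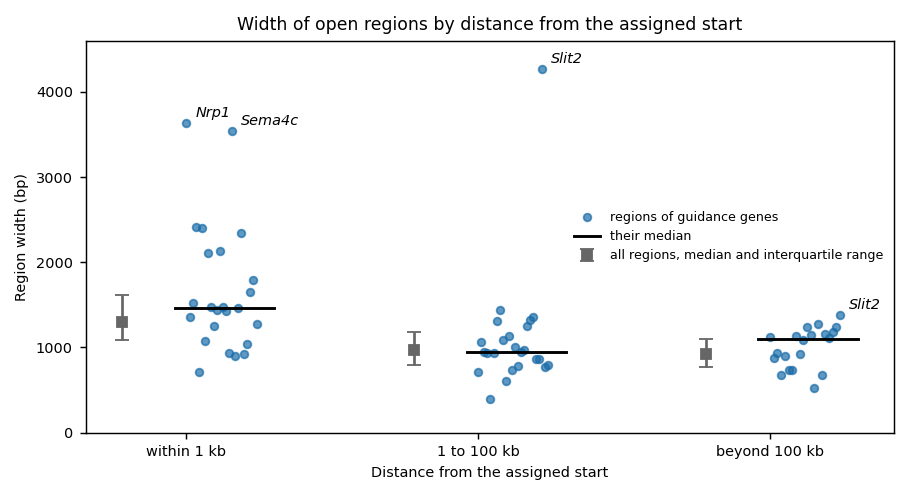
Width in bp of the 68 regions of guidance genes (points; black lines are medians) by distance from the assigned start, beside the median and interquartile range of all regions of the same distance (grey). The start regions of Slit2 (4273 bp), Nrp1 (3639 bp) and Sema4c (3542 bp) stand highest, and that of Slit2 falls in the middle class, its centre lying 1503 bp from the assigned start.

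Genes with several regions were also longer in the median. The 8 genes with 3 or more regions had a median span of 353 kb, the 21 with 1 or 2 regions 39.6 kb and the 8 with none 24.0 kb, and the median of all 37 was 92.5 kb against 15.4 kb for all coding genes. Among genes over 200 kb, 9 of 10 guidance genes had a region and 7 had 3 or more (70%), with a mean of 4.30 regions. Of the 938 other coding genes of that length, 78.3% had a region and 26.4% had 3 or more, with a mean of 1.99. Among genes of 200 kb or less, 20 of 27 guidance genes had a region (74.1%), against 41.5% of other coding genes, with means of 0.926 and 0.575 regions. Length and number of regions did not always go together, since Plxna4 (444 kb) had no region, and Slit3 (587 kb, the longest) and Robo2 (520 kb) had 2 each. The part of gene length in the number of regions was not tested.

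The genes with and without a region had the same median CpG frequency at their starts. CpG dinucleotides were counted within 500 bp on either side of each annotated start, and the most CpG-rich start of each gene was used. The median was 6.90 CpG per 100 bp in the 29 genes with a region and 6.90 in the 8 without, whereas over all coding genes it was 6.60 with and 2.20 without a region. Plxnd1 had 10.5 per 100 bp, above 92.0% of coding genes, Plxna4 had 10.4 and Sema7a had 9.0, all without a region. Plxnb3 (0.80) and Sema3g (1.40) had the lowest values of the 37 genes. The 120 bases upstream of the most CpG-rich start of 3 genes, among starts with no exon in that window, are shown, on the strand of the gene and with CpG in capitals, to set 1 start inside an open region beside 2 that lay in none.
Sema3c: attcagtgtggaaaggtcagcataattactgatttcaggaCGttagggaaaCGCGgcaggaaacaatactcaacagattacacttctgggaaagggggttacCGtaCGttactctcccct
Plxnd1: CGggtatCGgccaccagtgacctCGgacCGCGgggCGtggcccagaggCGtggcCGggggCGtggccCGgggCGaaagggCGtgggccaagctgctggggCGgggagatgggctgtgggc
Plxnc1: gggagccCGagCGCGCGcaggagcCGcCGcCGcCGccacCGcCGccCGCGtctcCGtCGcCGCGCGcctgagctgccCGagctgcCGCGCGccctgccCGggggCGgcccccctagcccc

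In these windows Plxnc1 had 23 CpG, at chr10:94407213-94407332, where no region was listed. Sema3c had 5, at chr5:17079979-17080098, inside its region, and Plxnd1 had 13, at chr6:115945024-115945143, with no region.

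**Figure D5:**
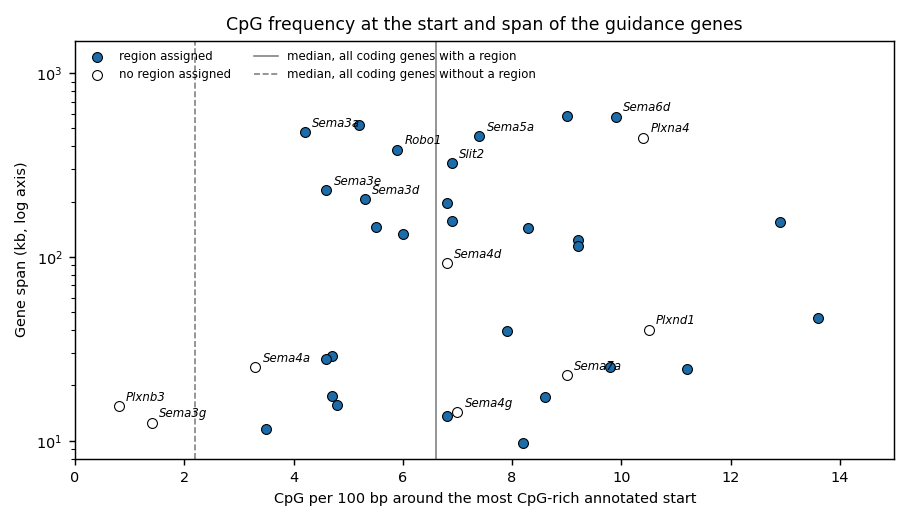
CpG per 100 bp around the most CpG-rich annotated start (horizontal) and gene span in kb on a log axis (vertical) for the 37 genes, filled where a region was assigned and open where none was. The vertical lines are the medians of all coding genes with a region (6.60) and without one (2.20), and 6 of the 8 open points lie to the right of the lower of these.

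Short motifs were searched on both strands in the central 300 bp of the 44 regions over 1 kb from the assigned start. Of these, 4 lay within 1 kb of some annotated start, the widest Slit2 region among them. The shares were set beside those of the 8081 regions of the list over 1 kb from the assigned start, where such regions were also kept. The Meis and Tgif spelling TGACAG was found in 12 of the 44 (27.3%, 16.3 to 41.8; all regions 23.3%), and 6 of these 12 were among the 9 distal Robo1 regions. The TEAD spelling GGAATG was found in 10 (22.7% against 22.2%). The GATA spellings AGATAA and TGATAA, which share GATAA, were in 9 (20.5% against 14.5%) and 6 (13.6% against 9.76%). The Isl1 spelling CTAATG was in 4 regions (9.09% against 11.2%), of which 2 belonged to Sema5a, 1 to Sema3a and 1 to Robo1. TNAAGTG, for Nkx2-5, was in 6 (13.6% against 14.2%), and the E-box CATCTG was in 6 (13.6% against 21.8%). GGTGTGA, for T-box factors, was in 3 (6.82% against 4.07%), and the forkhead spelling TGTTTAC and the Mef2 spelling TAAAAATA in 2 each (4.55%, against 5.49% and 1.61%). For all 10 motifs the share of the whole list lay inside the 95% Wilson interval of the guidance genes. The number of motifs per region ran from 0 in 11 regions, including all 4 regions of Slit2 over 1 kb from the assigned start, to 4 in the upstream region of Plxna2.

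Some open regions lay inside these genes but were assigned to other symbols. There were 10 such regions in 8 genes, and 7 of them were assigned to microRNA genes. Mir218-1 and Mir218-2 are encoded in introns of Slit2 and Slit3. One region assigned to Mir218-1 lay in an intron of Slit2, 258 kb from its 5′ end, and 2 assigned to Mir218-2 lay in introns of Slit3, 385 and 403 kb from its 5′ end. The others were the regions in Nrp1, Sema4a, Robo2, Plxna4 and Sema3c given above, and 1 in an intron of Sema6d assigned to the transcript 4930583P06Rik. When every region was given instead to the coding gene with the nearest annotated start, 31 of the 37 genes had a region, with Sema4a and Plxna4 added, and their regions numbered 95. By that assignment Robo1 had 14, Plxna2 9, Robo2 7 and Sema6a 6, against 10, 3, 2 and 1 in the deposited list, whereas Sema3d fell from 4 to 2. Counting only regions inside a gene or within 10 kb of it gave 67 regions in 31 genes. By that count Robo1 had 5 regions, Sema3d 1, Sema3e 3, Sema6d 4 and Slit2 3, fewer than in the deposited list. Sema3a kept 7 and Plxna2 3, and Sema5a rose to 5.

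Genes that act with these cues inside and on the cell were also mostly represented. Of 30 such genes, 22 had a region (73.3%, 55.6 to 85.8), against 49.3% of all coding genes. A region within 1 kb of the start was listed for 21 (70%, 52.1 to 83.3), against 40.6%. Srgap1, Srgap2 and Srgap3, whose products bind the tail of Robo receptors, all had a start region, of up to 2599, 3063 and 1318 bp for the widest region of each. Start regions were also listed for Farp1, Farp2, Rnd1, Rnd2 and Rnd3, for Gipc1, which binds the tail of Nrp1, and for Kdr and Met, receptor kinases that pair with neuropilins and with plexins. Flrt3, a membrane ligand that binds Robo1, had 15 regions, 9 of them beyond 100 kb. Robo4, Mical1, Micall1, Crmp1, Dpysl2, Dpysl4, Fes and L1cam had none.

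Of the other guidance families, 14 of 22 ephrin and Eph receptor genes had a region (63.6%, 43.0 to 80.3), with 54 regions in all, and 5 of 13 netrin and netrin receptor genes did (38.5%, 17.7 to 64.5), with 17 regions. The share of the semaphorin, plexin, neuropilin, Slit and Robo genes, 78.4%, lay inside the interval of the first family and outside that of the second. The share of all coding genes with a region, 49.3%, lay inside both intervals. The mean number of regions per gene with a region was 2.34 for the 37 genes, 3.86 for the ephrins and Eph receptors and 3.40 for the netrin genes. Centred within 1 kb of the assigned start were 12 of the 54 ephrin and Eph regions and 5 of the 17 netrin regions. For the 37 genes these were 24 of 68, so regions away from the start were not particular to them. No difference between the families was tested.

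The marker genes did not single out the dissected tissue. Of 11 heart and pharyngeal mesoderm markers, 6 had a region (54.5%, 28.0 to 78.7), close to the 49.3% of all coding genes, and these were Isl1, Gata4, Tbx20, Mef2c, Hand2 and Fgf10, and Nkx2-5, Tbx5, Tbx1, Myh6 and Tnnt2 had none. Markers of other cell types also had regions, with 4 of 6 for endothelium, 2 of 4 for neural crest, 3 of 4 for neural tube, 2 of 4 for blood and 4 of 4 for gut endoderm, none of the last within 1 kb of a start. The part of each cell type in the regions of the guidance genes was not tested.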

How the data were processed

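ATAC-seq libraries of 3 control embryo samples underlay the list used here. Per the study's methods, the authors aligned reads to mm9 with bowtie2, removed duplicates with Picard 1.136, called peaks per library with MACS14 and removed blacklisted regions. With bedtools 2.15 they kept regions that overlapped by at least 1 bp in the 3 replicates. The deposited columns hold positions in bp, the distance from the assigned start in bp and the gene; the methods name annotatePeaks.pl, which takes the closest start, for ChIP-seq peaks only, and the tool used for these regions is not given in the sources used here. The list gives no value per library, and by the study's methods the reads came from 3 embryos per genotype.

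The 17432 rows were collapsed to 17164 distinct regions by position. Symbols were matched to the gene annotation of the same build (GENCODE vM1), where all 37 were found. A region was called near its start when its centre lay within 1 kb, and far beyond 100 kb. Shares carry 95% Wilson intervals for counting error only. With 1 pooled list there was no test between samples. The functions were tested on simulated positions. Every gene is accounted for, with full values for those with 3 or more regions and for Sema3a, Sema3c, Sema3d, Sema3e, Plxna2, Plxnd1, Nrp1, Nrp2, Slit2, Slit3, Robo1 and Robo2; sequences shown were a selection made with the values known. The genes, lists and motifs were chosen with earlier results of these data known. Sequences and motif matches were read from the mm9 genome with pysam 0.24.0 under Python 3.11.15. Alternatives varied the assignment, the distance window, the width filter and the comparison genes.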

Additional observations from a re-analysis of the deposited data

How the results depend on the processing

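The 8 summary values were recomputed under the alternatives, giving 41 values. A change of sign was possible only for the excess of guidance genes over other coding genes, and none occurred there. Of the 41 values, 38 stayed within 1.5 times the reported count or mean, inside the interval of the reported share or median, or within the limit for the excess given below. The other 3 came from keeping the wider regions alone (list median width or more), a filter that by its construction removes narrow distal regions. It left 33 regions, 54.5% of them within 1 kb of the start, with a median width of 1431 bp. The excess of guidance genes over other coding genes in the share with a region was 29.2 percentage points over the 21031 genes of the reference table, 24.2 with the wider regions alone and 37.7 by nearest annotated coding start. Over the gene annotation of the build it was 35.3 against all 22201 other coding genes, a comparison added after seeing the data. Against the 7992 of similar span (22.8 to 206 kb) it was 19.8. An excess counted as unchanged when its shift was within the interval around the share of 29 of 37 genes, so 19.8 counted as unchanged. Some values could not move far. The 29 genes could not rise 1.5 times among 37, and the region count without Robo1 was fixed beforehand.

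No paired analysis was possible because the list pools the 3 control libraries and gives no value per library. Leaving out each replicate was not run for the same reason. Depth is unknown, and regions called in a single library are not in this list. Absence of a region, region width and assignment to a gene are statements about this list, not about expression or binding.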
